A study of Mus musculus with 6 samples.

Results

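The Hox genes are the homeobox genes that lie in 4 clusters of the mouse genome, Hoxa on chromosome 6, Hoxb on chromosome 11, Hoxc on chromosome 15 and Hoxd on chromosome 2. They were compared here between somatic cells of the fetal testis and embryonic stem cells. A gene was counted as a member when a probe's transcript identifier led to a symbol that starts with Hoxa, Hoxb, Hoxc or Hoxd plus a number, and 40 such genes of the 32496 on the array are described here. Of these 40, 38 are protein-coding genes and 2 are antisense RNA genes, Hoxa11os and Hoxd3os1. All genes, here and below, include transcripts without a symbol, each counted as a gene under its own identifier. The coding members described number 10 in the Hoxa cluster, 10 in Hoxb, 9 in Hoxc and 9 in Hoxd.

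The soma group holds 3 samples of gonadal somatic cells from male genital ridges at stage E13.5, from MCH x C57BL6/J embryos that carry the transgene labelled Oct5<delta>PE-GFP. In the ESC group, all 3 samples come from VR15, a line of male embryonic stem cells that carries a Vasa::RFP transgene, so this group stands for a single line. The labels call the samples biological replicates, and each of the 6 had its own one-colour array, labelled with Cy3 from 100 ng of total RNA. The strains of the groups differ as well as the cell types, and strain and cell type cannot be told apart. Since each array holds RNA from many cells, fewer cells of a type and less RNA per cell cannot be told apart either.

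Hox proteins are transcription factors that give cells of the embryo their position along the head-to-tail axis. The genes of a cluster are numbered from the anterior end, and same-numbered genes of different clusters, called paralogs, arose by duplication of an ancestral cluster. In the trunk, genes with low numbers come on early and reach far forward, genes with high numbers come on later and further back, and Polycomb proteins keep the clusters silent in embryonic stem cells. Many Hox proteins bind DNA together with Pbx and Meis proteins.

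The array signal had its 75th percentile between 1245 and 1388 on soma arrays and between 959 and 1016 on ESC arrays. A value is given below as a percentage of that array's 75th percentile, and a difference as soma minus ESC on the log2 scale with the SE of the limma fit (n = 3 per group). The scanner software marked 58.1% to 63.2% of gene probes well above background on soma arrays, and 56.0% to 60.9% on ESC arrays. The lowest signal with that mark was 2.12% to 3.11% of the 75th percentile on soma arrays and 2.40% to 3.28% on ESC arrays. Where no array of a group carried the mark, the difference is given as a lower bound against that lowest signal. Probes differ in how strongly they bind, so no gene's level is set against another gene's.

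Start regions of the Hoxd cluster are shown because this cluster holds the highest bounds among the Hox genes and also genes without signal. Hoxd4 and Hoxd9 had these bounds, Hoxd10 lies next to Hoxd9, and Hoxd12 had no array well above background. Each sequence runs 5′ to 3′ from 250 bases before to 50 bases after the annotated start, as RefSeq gives it for GRCm38.p6. Capitals mark 2 common promoter motifs on either strand, CCAAT and the box TATAAA.
Hoxd4, chr2:74721728-74722027, plus strand: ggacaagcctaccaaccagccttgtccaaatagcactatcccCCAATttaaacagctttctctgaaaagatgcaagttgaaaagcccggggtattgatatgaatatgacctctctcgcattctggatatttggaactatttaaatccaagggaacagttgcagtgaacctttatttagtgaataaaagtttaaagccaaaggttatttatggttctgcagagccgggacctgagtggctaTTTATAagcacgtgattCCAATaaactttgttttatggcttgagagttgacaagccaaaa
Hoxd9, chr2:74697513-74697812, plus strand: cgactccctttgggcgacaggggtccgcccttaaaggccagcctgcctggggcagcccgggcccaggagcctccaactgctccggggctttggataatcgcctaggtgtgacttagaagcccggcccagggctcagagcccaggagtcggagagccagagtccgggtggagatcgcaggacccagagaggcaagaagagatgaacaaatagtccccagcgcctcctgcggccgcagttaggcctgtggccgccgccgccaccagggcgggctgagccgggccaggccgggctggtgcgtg
Hoxd10, chr2:74691641-74691940, plus strand: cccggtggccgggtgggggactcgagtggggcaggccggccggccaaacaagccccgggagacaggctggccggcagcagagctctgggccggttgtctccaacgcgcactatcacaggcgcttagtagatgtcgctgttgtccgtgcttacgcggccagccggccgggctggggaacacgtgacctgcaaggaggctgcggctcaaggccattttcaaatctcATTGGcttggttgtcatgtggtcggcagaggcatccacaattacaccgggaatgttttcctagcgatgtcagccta
Hoxd12, chr2:74674763-74675062, plus strand: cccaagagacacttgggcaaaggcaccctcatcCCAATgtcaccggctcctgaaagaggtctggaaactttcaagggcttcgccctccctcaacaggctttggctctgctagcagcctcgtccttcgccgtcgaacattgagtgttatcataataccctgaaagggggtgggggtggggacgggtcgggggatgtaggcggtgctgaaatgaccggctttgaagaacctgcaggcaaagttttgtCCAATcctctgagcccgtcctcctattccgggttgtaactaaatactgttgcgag
Hoxd4 held 1 TATAAA and 2 CCAAT, Hoxd10 held 1 CCAAT, Hoxd12 held 2 CCAAT, and Hoxd9 held neither. The dinucleotide CG occurred 4 times in the Hoxd4 window, 20 times in Hoxd9, 22 times in Hoxd10 and 13 times in Hoxd12. Thus the genes with the highest bounds had both CG-poor and CG-rich start regions. The promoter table gave 24 start regions for 22 coding Hox genes, with a median of 14.5 CG and 57.7% G plus C, against medians of 7 and 52.7% over all 32851 start regions. CCAAT lay in 15 of the 24 and in 37.4% of all start regions. TATAAA lay in 4 of the 24 and in 13.6% of all, and TGATNNAT, the letters that Pbx and Hox proteins bind together, in 4 of the 24 and in 8.85% of all. None of the 4 sequences shown holds TGATNNAT on either strand, which says only that these letters are not in these windows.

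Most Hox genes that could be measured were higher in soma, across all 4 clusters, and 1 gene at the posterior end was lower. Of the 38 coding genes, 25 passed the filter, which asks for the background mark on every array of soma, of ESC or of both, and which 60.5% of all genes passed. In the limma fit with Benjamini-Hochberg adjustment over 19673 genes, 23 of them were higher in soma 1 was lower, Hoxc13, and Hoxa9 did not pass. All 23 were at least 2-fold higher, and the 24 called genes had no overlap between the groups. Among all genes tested 84.9% were called, 38.3% higher in soma and 46.6% lower, 23.2% were at least 2-fold higher, 39.5% had all soma arrays above all ESC arrays and 47.7% had them below. Of the 23 genes, 20 passed the filter through the soma arrays alone, the group where they are high, and 3 passed through both groups, Hoxa7, Hoxb9 and Hoxc6. Since 89.2% of all genes that passed through the soma arrays alone were called higher, the direction of those 20 gives no support of its own. For 14 of the 23 no ESC array carried the mark, and that pattern held for 14 of the 38 coding Hox genes, against 3.77% of all 32496 genes. The reverse pattern, the mark on all 3 ESC arrays and on no soma array, held for 0 of the 38, against 2.5% of all genes, and 9 of the 38 had the mark on no array, against 29.3% of all genes.

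The mark was present on all 3 soma arrays for 24 of the 38 coding genes and on all 3 ESC arrays for 5, which are Hoxa7, Hoxa9, Hoxb9, Hoxc6 and Hoxc13. Among all genes these shares were 56.2% for soma and 53.9% for ESC. With no filter on dim probes, all 38 coding genes entered the fit, and 23 were higher in soma, 5 lower and 10 not called, where 24.9% of all genes were higher and 29.5% lower. Hoxa10 was called in that fit and Hoxa2 was not (adjusted p = 0.0791). Of the 4 coding genes marked on all 6 arrays, 3 were higher in soma and 1 was not called, where 35.3% of all such genes were higher. The median difference over the 25 tested was 3.56, and 2.76 with the bounded genes at their bounds, while the median over all tested genes was -0.14.

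Counted per array, soma 1, soma 2 and soma 3 had 24, 27 and 26 of the 38 coding Hox genes well above background, while ESC 1, ESC 2 and ESC 3 had 5, 13 and 9. The means were 25.7 ± 1.53 on soma and 9 ± 4 on ESC arrays (SD, n = 3 each), and the two-sided exact permutation p was 0.1, the smallest that 3 arrays against 3 allow. Every soma array marked more Hox genes than every ESC array. Soma 2 and ESC 2, which marked the most Hox genes of their groups, also marked the largest share of all probes, and the part of that in the Hox counts was not tested. With the weaker mark of a signal that is positive and significant, the counts were 30, 33 and 31 on soma and 21, 29 and 26 on ESC arrays.

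**Figure D1:**
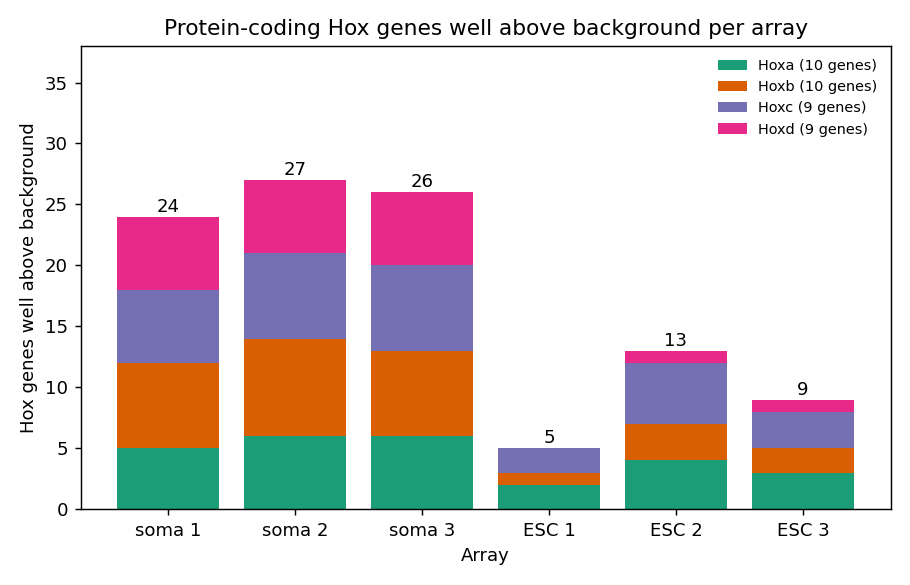
Number of protein-coding Hox genes well above background on each array (y axis, of 38), stacked by cluster, for soma 1 to 3 and ESC 1 to 3. Each bar's total stands above it, from 24 to 27 on soma arrays and from 5 to 13 on ESC arrays, and the Hoxd part holds 6 genes on every soma array and at most 1 on an ESC array.

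The Hoxd cluster, known for the patterning of limbs, digits and the trunk skeleton, had the highest median difference of the 4 clusters. Of its 9 coding genes, 6 passed the filter, all through the soma arrays alone, and all 6 were higher in soma. Their median difference, a description of genes chosen in this way, was 6.49, or 6.0 with the bounded genes at their bounds. The other 3, Hoxd1, Hoxd12 and Hoxd13, lacked the mark on every array. No Hoxd gene carried the mark on all 3 ESC arrays.

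Hoxd9, which acts with its paralogs in lumbar motor neurons and limbs, had 323%, 307% and 354% on soma arrays and 0.836%, 0.598% and 0.748% on ESC arrays. It was at least 115-fold higher in soma (limma adjusted p = 1.94e-07). Hoxd4, which helps to shape the neck vertebrae, had 268%, 428% and 315% on soma arrays and 0.741%, 0.966% and 1.53% on ESC arrays, and was at least 116-fold higher in soma (limma adjusted p = 1.97e-06). For both genes every soma array was far above every ESC array, and no ESC array was well above background.

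Hoxd10, a gene of hindlimb motor neurons, had 119.8%, 121% and 123% on soma arrays and 1.65%, 2.22% and 1.23% on ESC arrays, at least 42.7-fold higher in soma. Hoxd3, which with Hoxa3 shapes the vertebrae at the base of the skull, had 60.5%, 69.7% and 54.3% on soma arrays and 0.848%, 0.608% and 0.747% on ESC arrays, at least 21.5-fold higher. Neither gene was marked on an ESC array, and both passed the limma test (adjusted p = 1.47e-06 for Hoxd10 and 5.01e-07 for Hoxd3).

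Hoxd8, a gene of the trunk skeleton, had 234%, 239% and 244% on soma arrays and 1.11%, 4.13% and 3.35% on ESC arrays. Its difference was 6.59 ± 0.49, a 96.1-fold higher level in soma (limma adjusted p = 3.83e-05), and it was well above background on 2 of 3 ESC arrays. Its soma arrays lay close together, and its ESC values were spread, with ESC 1 the lowest. Hoxd11, which with Hoxa11 is needed for the forearm bones and the kidney, had 8.26%, 6.58% and 9.23% on soma arrays and 0.863%, 1.25% and 0.867% on ESC arrays, at least 2.79-fold higher (limma adjusted p = 1.87e-05). It was the highest-numbered gene of any cluster that was well above background on all soma arrays.

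The posterior neighbours of Hoxd11 in the same cluster were dark in soma. Hoxd12, a gene of the limb end, had 0.803%, 0.535% and 0.695% on soma arrays and 0.856%, 0.613% and 0.754% on ESC arrays, so that the groups overlapped. Hoxd13, the gene of digits and the genital tubercle, had 0.905%, 0.608% and 0.788% on soma arrays and 2.60%, 3.33% and 2.92% on ESC arrays. All 3 ESC values of Hoxd13 were above all soma values and carried the weaker mark, but none was well above background, and the size of this difference cannot be given. Hoxd1, which acts in pain-sensing neurons of the mouse, had 0.696% to 0.973% on soma arrays and 1.01% to 1.13% on ESC arrays, with no array well above background.

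**Figure D2:**
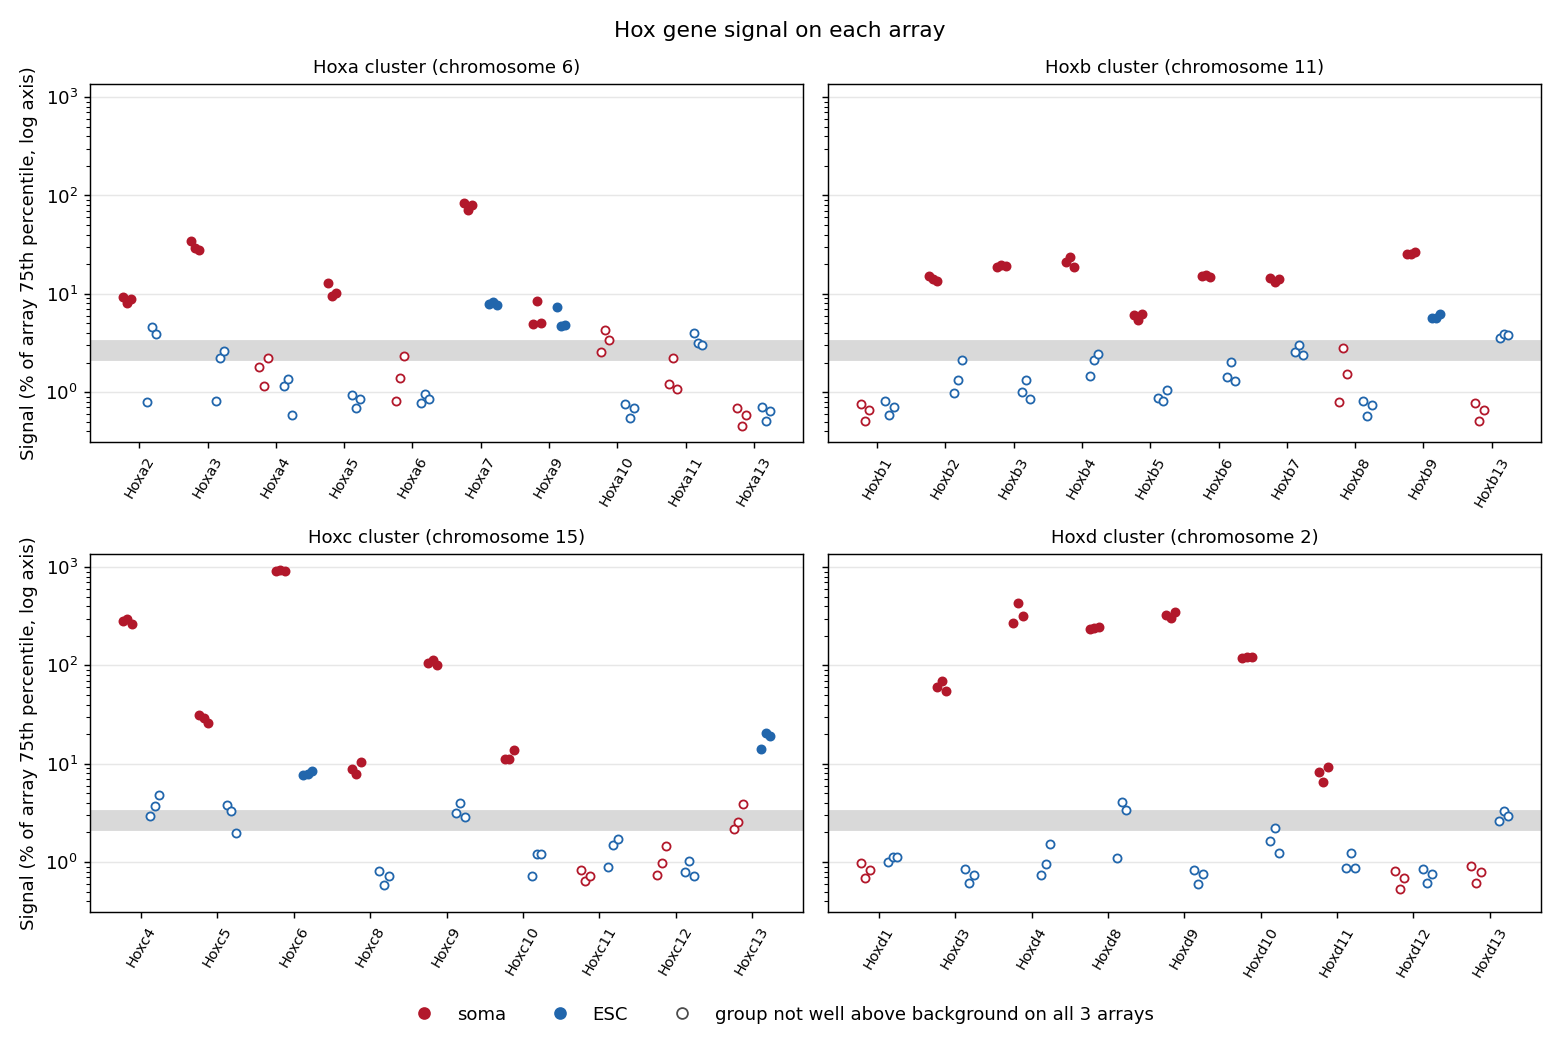
Signal of the protein-coding Hox genes on each array, as a percentage of the array's 75th percentile (log axis), with 1 panel per cluster and genes by paralog number. Soma arrays are red on the left of each gene and ESC arrays blue on the right, open points belong to a group that was not well above background on all 3 arrays, and the grey band spans the lowest well-above-background signal of the 6 arrays (2.12% to 3.28%). The Hoxd3 to Hoxd10 soma points lie between 54.3% and 428%, and the Hoxc13 ESC points lie above their soma points.

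The Hoxc cluster had 6 coding genes higher in soma and 1 lower, of 7 tested among 9, with a median of 3.67, or 3.30 with bounds. Of these 7 genes, 5 passed the filter through the soma arrays alone, where 89.2% of all genes were called higher. Hoxc6, a gene of the chest region and its ribs, had 904%, 938% and 916% on soma arrays and 7.63%, 7.95% and 8.53% on ESC arrays. All 6 arrays were well above background, and the difference was 6.84 ± 0.06, a 114.5-fold higher level in soma (limma adjusted p = 1.47e-07). Replicates of both groups lay close together, and this was the largest difference among the 4 coding Hox genes that were marked on every array.

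Hoxc4, which acts in the neck and upper chest and in the oesophagus, had 282%, 295% and 266% on soma arrays and 2.95%, 3.72% and 4.84% on ESC arrays, of which 2 of 3 were well above background. Its difference was 6.22 ± 0.18, or 74.7-fold (limma adjusted p = 8.94e-07). Hoxc9, which sets the chest identity of motor neurons, had 105%, 113% and 101% on soma arrays and 3.19%, 3.99% and 2.86% on ESC arrays, of which 1 of 3 was well above background. The difference of Hoxc9 was 5.0 ± 0.13, or 32.0-fold (limma adjusted p = 6.77e-07). The groups did not overlap for either gene.

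Hoxc5, a neighbour of Hoxc4 that shares a role in the neck region, had 31.4%, 29.4% and 25.8% on soma arrays and 3.78%, 3.31% and 1.99% on ESC arrays, a difference of 3.30 ± 0.25 (limma adjusted p = 3.95e-05), with 1 of 3 ESC arrays well above background. Hoxc8, a gene of the lower chest skeleton, had 8.75%, 7.87% and 10.3% on soma arrays and 0.582% to 0.815% on ESC arrays, at least 3.14-fold higher in soma. Hoxc10, a gene of the lumbar region, had 11.2%, 11.2% and 13.8% on soma arrays and 0.727% to 1.21% on ESC arrays, at least 4.21-fold higher. No ESC array was well above background for Hoxc8 or Hoxc10.

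Hoxc13, a gene of hair and nail formation at the posterior end of the cluster, ran the other way. It had 2.18%, 2.57% and 3.87% on soma arrays, of which 2 of 3 were well above background, and 14%, 20.4% and 19.1% on ESC arrays, all well above background. The difference was -2.66 ± 0.25, a 6.33-fold lower level in soma (limma adjusted p = 0.000114). Hoxc11 and Hoxc12, which lie between Hoxc10 and Hoxc13, lacked the mark on every array, at 0.645% to 0.838% on soma and 0.894% to 1.71% on ESC arrays for Hoxc11, and 0.747% to 1.46% on soma and 0.719% to 1.02% on ESC arrays for Hoxc12. Neither neighbour thus shared the ESC mark of Hoxc13. All ESC values of Hoxc11 lay above its soma values, however, and with no filter it was called lower in soma (limma adjusted p = 0.0437).

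The Hoxb cluster had 7 coding genes tested of 10, all higher in soma, at a median of 3.28, or 2.39 with bounds. These were Hoxb2, Hoxb3, Hoxb4, Hoxb5, Hoxb6, Hoxb7 and Hoxb9. Of the 7, 6 passed the filter through the soma arrays alone, a route by which 89.2% of all genes were called higher. For 5 of them no ESC array was well above background, and their bounds ran from 2.06-fold for Hoxb5 to 7.38-fold for Hoxb4. The genes before and after this run, Hoxb1 and Hoxb13, and Hoxb8 within it, did not pass the filter.

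Hoxb9, a gene of the ribs and the mammary gland, had 25.6%, 25.7% and 26.9% on soma arrays and 5.69%, 5.66% and 6.19% on ESC arrays. All 6 arrays were well above background, with a difference of 2.16 ± 0.06, or 4.46-fold (limma adjusted p = 7.16e-07). Hoxb7, also of the rib cage, had 14.5%, 13.1% and 14.1% on soma arrays and 2.54%, 3.04% and 2.40% on ESC arrays, a difference of 2.39 ± 0.10 (limma adjusted p = 3.58e-06), with 1 of 3 ESC arrays well above background. For both genes the spread within groups was small beside the gap between them.

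Hoxb4, known for its effect on blood stem cells, had 21.1%, 23.5% and 18.7% on soma arrays and 1.47%, 2.12% and 2.44% on ESC arrays, at least 7.38-fold higher. Hoxb3, a hindbrain and thyroid region gene, had 19.0%, 19.5% and 19.4% on soma arrays and 0.998%, 1.34% and 0.843% on ESC arrays, at least 6.77-fold higher, and its other probe was higher in soma as well. Hoxb6, a gene of the rib cage, had 15.1%, 15.6% and 14.8% on soma arrays and 1.43%, 2.04% and 1.31% on ESC arrays, at least 5.33-fold higher. These 3 genes passed with limma adjusted p-values of 1.30e-05, 2.67e-06 and 7.42e-06, and their groups did not overlap.

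Hoxb2, a regulator of facial motor neurons in the hindbrain, had 15.2%, 14.1% and 13.6% on soma arrays and 0.980%, 1.34% and 2.13% on ESC arrays, at least 5.01-fold higher. Hoxb5, known for a part in the nerve cells of the gut, had 6.04%, 5.36% and 6.23% on soma arrays and 0.862%, 0.808% and 1.04% on ESC arrays. It was at least 2.06-fold higher, the lowest bound among the 14 tested coding Hox genes that have a bound. Of the coding genes that did not pass the filter, Hoxa10 was at least 1.17-fold higher in soma. Hoxa11 and Hoxb13 were at least 1.28-fold and 1.45-fold lower.

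Hoxb1, which gives the facial nerve segment of the hindbrain its identity, lacked the mark on every array, at 0.510% to 0.759% on soma and 0.583% to 0.810% on ESC arrays. Hoxb8, whose loss makes mice groom to excess, was well above background on soma 2 alone, at 2.79%, and had 0.786% on soma 1 and 1.52% on soma 3, against 0.578% to 0.814% on ESC arrays. Hoxb13, which limits the length of the tail and acts in the prostate, had 0.767%, 0.511% and 0.660% on soma arrays and 3.59%, 3.90% and 3.77% on ESC arrays. Hoxb13 was well above background on 2 of 3 ESC arrays and on no soma array, and did not pass the filter.

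In the Hoxa cluster, 5 of 10 coding genes were tested, of which Hoxa2, Hoxa3, Hoxa5 and Hoxa7 were higher in soma and Hoxa9 was not called, with a median of 3.31, or 1.92 with bounds. Here 3 of the 5 passed the filter through the soma arrays alone, a route by which 89.2% of all genes were called higher. Hoxa7, a gene of the chest skeleton, had 84.8%, 70.7% and 79.8% on soma arrays and 7.83%, 8.16% and 7.69% on ESC arrays. All 6 arrays were well above background, and the difference was 3.31 ± 0.08, or 9.92-fold (limma adjusted p = 5.23e-07). Its soma values were all far above its ESC values.

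Hoxa3, needed for the thymus and parathyroid glands, had 34.4%, 29.2% and 28.0% on soma arrays and 0.816%, 2.21% and 2.64% on ESC arrays, a difference of at least 3.42 on the log2 scale (limma adjusted p = 0.000205). Hoxa5, needed for the lung and airway, had 12.7%, 9.56% and 10.3% on soma arrays and 0.942%, 0.692% and 0.842% on ESC arrays, at least 3.79-fold higher (limma adjusted p = 3.24e-06). No ESC array was well above background for either gene.

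Hoxa2, which gives the second branchial arch its identity, had 9.26%, 7.99% and 8.86% on soma arrays and 0.795%, 4.62% and 3.94% on ESC arrays. The groups did not overlap, but ESC 1 was far below ESC 2 and ESC 3, and the difference of 1.83 ± 0.68 passed narrowly (limma adjusted p = 0.0442). Its adjusted p was above 0.05 under 10 of the alternatives tried, among them quantile normalization and the removal of any single soma array. Without filtering, the adjusted p was 0.0791.

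Hoxa9, known for its part in blood progenitors and leukaemia, had 4.94%, 8.43% and 5.06% on soma arrays and 7.31%, 4.74% and 4.86% on ESC arrays. The groups overlapped, and the difference of 0.11 ± 0.27 did not pass (limma adjusted p = 0.723) and changed sign under quantile normalization, under scaling to the array median and when only the slide with both groups was used. Its other probe had 1.56% to 1.89% on soma arrays and 0.480% to 0.661% on ESC arrays with no mark on any of them.

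The remaining Hoxa genes did not pass the filter. Hoxa10, which acts in the uterus and in testis descent, had 2.57%, 4.24% and 3.37% on soma arrays, of which 2 of 3 were well above background, and 0.549% to 0.763% on ESC arrays. Hoxa11, its partner in the reproductive tract, had 1.20%, 2.24% and 1.07% on soma arrays and 4.03%, 3.16% and 3.02% on ESC arrays, of which 1 of 3 was well above background. The groups of these 2 genes did not overlap, and they lay in opposite directions.

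Hoxa4, a gene of the neck vertebrae, lay at 1.16% to 2.22% on soma and 0.583% to 1.36% on ESC arrays, and Hoxa6 at 0.815% to 2.34% on soma and 0.782% to 0.964% on ESC arrays. Hoxa13, a gene of the limb end and the urogenital outlet, lay at 0.457% to 0.682% on soma and 0.511% to 0.707% on ESC arrays. None of these 3 genes carried the mark on an array.

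Read by number rather than by cluster, the higher levels in soma ran from paralog 2 to paralog 10. The ranges 2 to 10 and 11 to 13 were cut by these same values, so the counts within them describe the data and test nothing. Of the 27 coding genes numbered 2 to 10, 23 were tested, 22 were higher in soma and none was lower, with Hoxa9 the gene that did not pass. Of these 23, 19 had entered through the soma arrays alone, a route by which 89.2% of all genes were called higher. Among all tested genes 38.3% were higher and 46.6% lower. With no filter, where 24.9% of all genes were higher and 29.5% lower, 22 of the 27 were higher in soma and none was lower. Hoxb1 and Hoxd1 were dark on every array. Of the 9 genes with numbers 11 to 13, 1 was higher in soma, Hoxd11, and 1 was lower, Hoxc13. With no filter, 5 of these 9 were lower, Hoxa11, Hoxb13, Hoxc11, Hoxc13 and Hoxd13, and they were the only coding Hox genes called lower in that fit. Hoxc13 apart, no array value of these 5 genes exceeded 4.03%, and Hoxc11 and Hoxd13 carried the mark on no array. Of the 6 genes numbered 12 and 13, Hoxc13 alone was well above background on any soma array.

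All 3 tested Hox4 paralogs were higher in soma, with Hoxa4 untested, and all 3 Hox3 and all 3 Hox5 paralogs were higher. The 15 central genes, numbered 4 to 8, gave 12 tested genes, all higher in soma. The 7 genes numbered 1 to 3 gave 5 tested genes, all higher, and the 16 genes numbered 9 to 13 gave 6 higher and 1 lower. All 5 tested genes numbered 1 to 3, 10 of the 12 central ones and 5 of the 8 numbered 9 to 13 had entered through the soma arrays alone. The same number did not carry the same size of difference across clusters: among the Hox9 paralogs, Hoxa9 differed by 0.11, Hoxb9 by 2.16 and Hoxc9 by 5.0, and Hoxd9 was at least 115-fold higher. Among the Hox8 paralogs, Hoxb8 was marked on 1 soma array and Hoxd8 was 96.1-fold higher. For Hoxc8 there is only a bound, at least 3.14-fold, which cannot be ranked against the fitted value of Hoxd8.

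**Figure D3:**
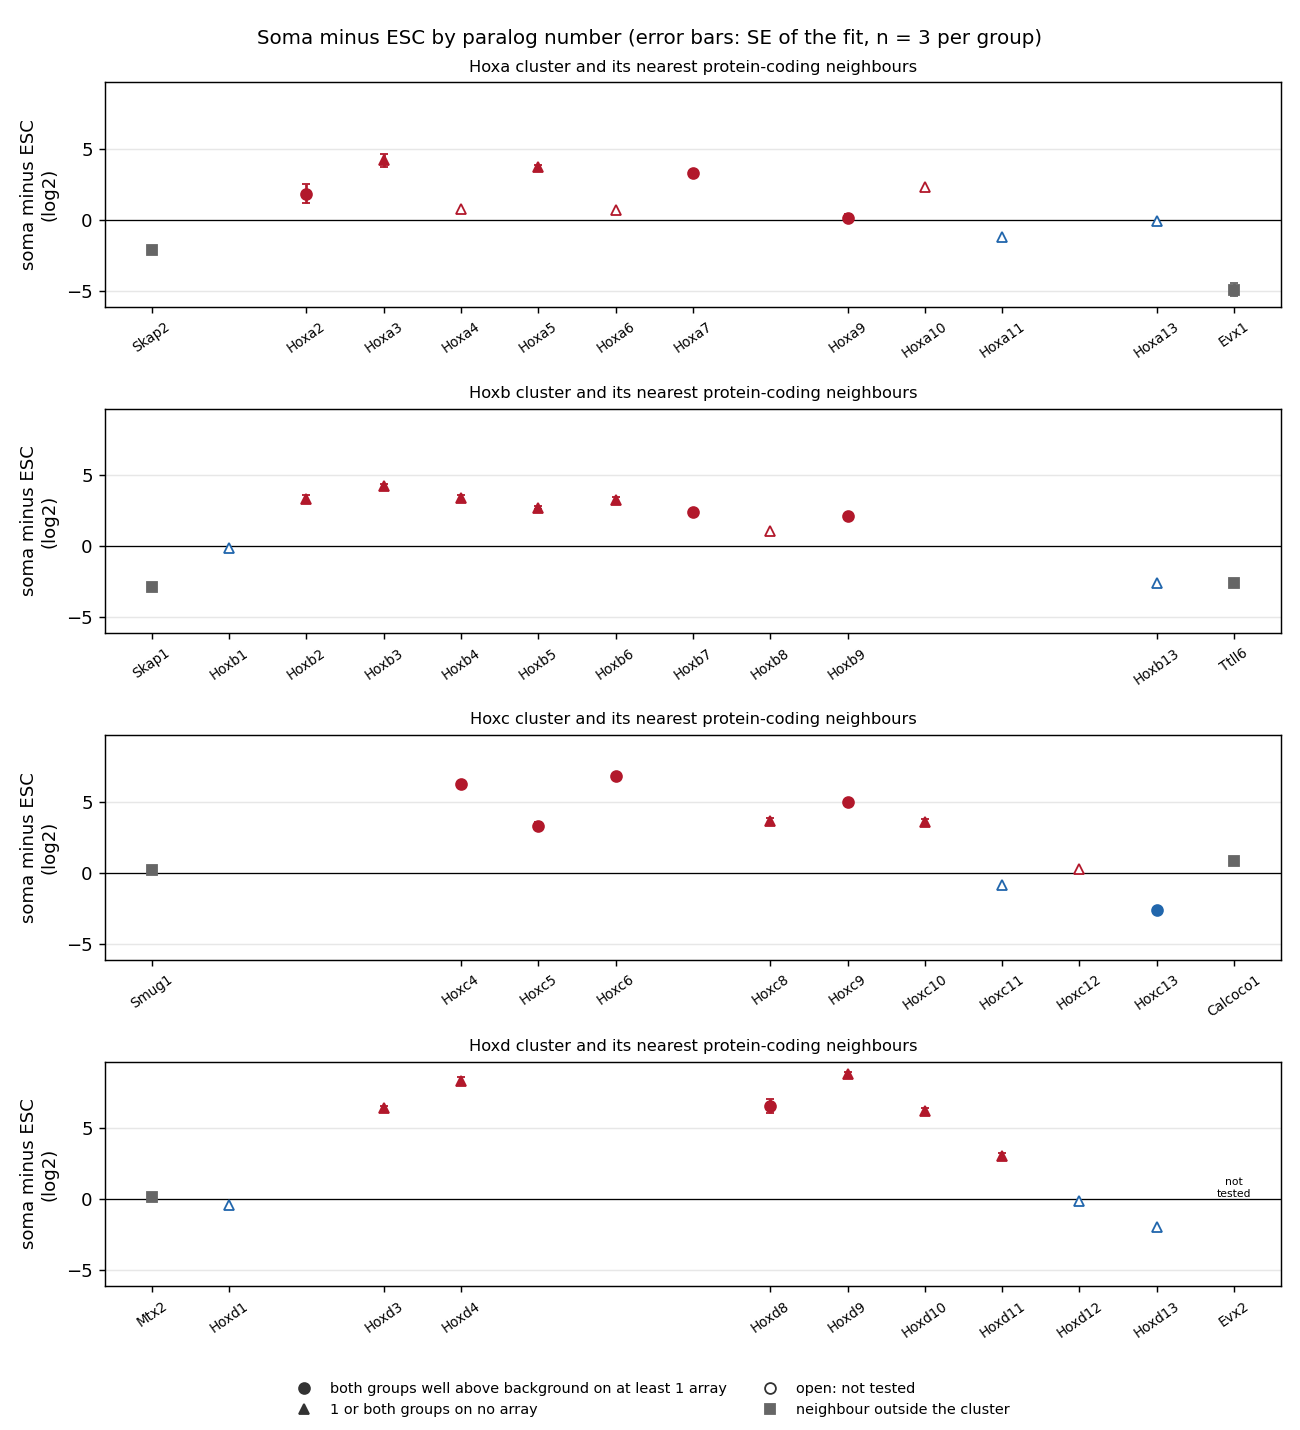
Difference between soma and ESC (log2, y axis, above 0 where higher in soma) for the coding Hox genes by paralog number (x axis), 1 panel per cluster, with the nearest protein-coding neighbour at each end in grey. Triangles are genes with no array well above background in at least 1 group, whose plotted difference is the fitted value and no bound, open symbols were not tested, blue symbols lie below 0, and bars are the SE of the fit (n = 3 per group). The symbols for numbers 2 to 10 lie above 0 in every cluster, with Hoxa9 at 0.11.

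The 2 antisense RNA genes differed from each other. Hoxd3os1, antisense at Hoxd3, had 9.46%, 10.5% and 12.01% on soma arrays and 0.886%, 0.774% and 0.786% on ESC arrays, at least 3.73-fold higher in soma (limma adjusted p = 8.68e-07). Hoxa11os, antisense at Hoxa11, had 3.91%, 8.74% and 5.10% on soma arrays and 10.3%, 8.30% and 10.6% on ESC arrays, where the groups overlapped. The difference of Hoxa11os was -0.79 ± 0.30 (limma adjusted p = 0.0492), and it missed the threshold under 11 of the alternatives tried, among them the removal of any single array other than soma 2. Of 21 non-coding RNAs of the clusters on a list drawn up for this comparison, Hoxa11os was the only one matched to a probe. The strand that these probes detect was not checked against their sequences.

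Protein-coding genes just outside the clusters were lower in soma more often than higher. Of 18 flanking genes listed, 13 were matched to a probe and tested, 3 were higher in soma and 9 lower, with a median of -0.83, against 38.3% higher and 46.6% lower of all genes. Under other scalings and normexp, 1 to 3 were higher and 7 to 10 lower. At the anterior end of the Hoxa cluster, Skap2, a signalling adaptor gene, had 104%, 104% and 106.6% on soma arrays and 481%, 433% and 453% on ESC arrays, a difference of -2.12 ± 0.06 (limma adjusted p = 6.88e-07). The gene beyond it, Snx10, was lower in soma by a difference of -3.17 ± 0.08. At the posterior end beyond Hoxa13, Evx1, an even-skipped homeobox gene of the posterior embryo, had 0.877%, 0.589% and 0.923% on soma arrays and 12.6%, 42.6% and 25.8% on ESC arrays, at least 9.28-fold lower in soma (limma adjusted p = 0.000105). Both ends of the Hoxa cluster thus adjoin genes with higher ESC levels.

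Skap1, next to Hoxb1, was at least 2.09-fold lower in soma, and Ttll6, next to Hoxb13, differed by -2.62 ± 0.09, with 1 of 3 soma arrays well above background. Next to Hoxc13, Calcoco1 was higher in soma by 0.85 ± 0.05. Smug1, a DNA repair gene next to Hoxc4, and Mtx2, a mitochondrial import gene next to Hoxd1, were higher by 0.16 ± 0.05 and 0.15 ± 0.05 (limma adjusted p = 0.0367 and 0.0231), and both were lower in soma, at -0.039 and -0.045, when arrays were scaled to their median. Evx2, next to Hoxd13, carried the mark on no array, and Lnpk beyond it was not called (difference -0.15 ± 0.10, limma adjusted p = 0.222). The differences of the 2 Hoxd neighbours that were tested were small beside those of Hoxd3 to Hoxd10.

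Genes of the Hox cofactor class, whose proteins bind DNA with Hox proteins, mostly went with the Hox genes. Of 8 listed and tested, 7 were higher in soma and 1 was lower, and the median was 1.29, against 38.3% higher and 46.6% lower of all genes. Meis1 had 1277%, 1137% and 1261% on soma arrays and 10.3%, 9.10% and 10.6% on ESC arrays, a difference of 6.94 ± 0.08, or 123-fold (limma adjusted p = 1.52e-07). Pknox2 and Meis2 were 40.7-fold and 38.2-fold higher in soma, with differences of 5.35 ± 0.11 and 5.26 ± 0.12. The groups lay far apart for these 3 genes, and every array was well above background. Pbx4 was at least 2.93-fold lower in soma.

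The caudal genes, homeobox genes that act upstream of posterior Hox genes in the embryo, were lower in soma where tested, unlike most tested Hox genes. The posterior gene Hoxc13 was lower in soma too. With no filter, so were 5 of the 9 Hox genes numbered 11 to 13, Hoxc13 among them, where 29.5% of all genes were lower. That range was cut by these same values, and Hoxc13 apart, no array value of the 5 exceeded 4.03%. Hoxc11 and Hoxd13 carried the mark on no array. A link between the caudal genes and these Hox genes was not tested. Cdx1 had 4.24%, 4.41% and 5.36% on soma arrays and 41.0%, 55.8% and 65.2% on ESC arrays, 11.4-fold lower in soma (difference -3.51 ± 0.19, limma adjusted p = 9.01e-06). Cdx2 had 0.645%, 0.436% and 0.551% on soma arrays and 9.98%, 38.7% and 31.5% on ESC arrays, at least 8.89-fold lower (limma adjusted p = 0.000129). These were the 2 tested genes of 6 caudal and ParaHox genes on the list, and Cdx4 carried the mark on no array.

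Genes of the machinery that keeps Hox clusters silent or active were also unequal. Of 12 genes of Polycomb repressive complex 2, which places the repressive H3K27 methylation, 11 were lower in soma and 1 was higher, with a median of -0.95, where 46.6% of all genes were lower, and 8 to 11 were lower and 1 to 2 higher under other scalings and normexp. The core genes Eed, Suz12 and Ezh2 differed by -2.54 ± 0.07, -1.23 ± 0.06 and -0.98 ± 0.06. The subunit gene Epop had the largest difference of the list, -5.35 ± 0.08, or 40.8-fold lower in soma, and Phf1 was the one gene that was higher, by 1.83 ± 0.06.

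Of 19 genes of Polycomb repressive complex 1, which binds that mark, 11 were higher in soma and 7 lower, which is 57.9% higher against 38.3% of all genes, and 9 to 11 were higher and 7 to 8 lower under other scalings and normexp. The chromobox genes went both ways: Cbx8 was at least 8.63-fold higher in soma and Cbx7 at least 5.62-fold lower. The RING finger gene Bmi1 was higher in soma by 2.64 ± 0.06, and the polyhomeotic gene Phc1 differed by -3.03 ± 0.07. A list of the Trithorax and MLL complexes and histone demethylases gave 5 genes higher in soma and 10 lower of 15 tested. The share higher, 33.3%, lies near the 38.3% of all genes, while the share lower, 66.7%, lies above the 46.6% of all genes. Among them were genes that favour active Hox genes, with Ash1l (1.95 ± 0.08) and the demethylase gene Kdm6b (1.10 ± 0.06) among the higher and Dpy30 (-2.34 ± 0.10) and Ash2l (-1.86 ± 0.07) among the lower. The list also holds Kdm5a (0.48 ± 0.07) and Kdm5b (-1.38 ± 0.07), whose proteins remove the active H3K4 methylation. Kmt2a was not analysed here.

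**Figure D4:**
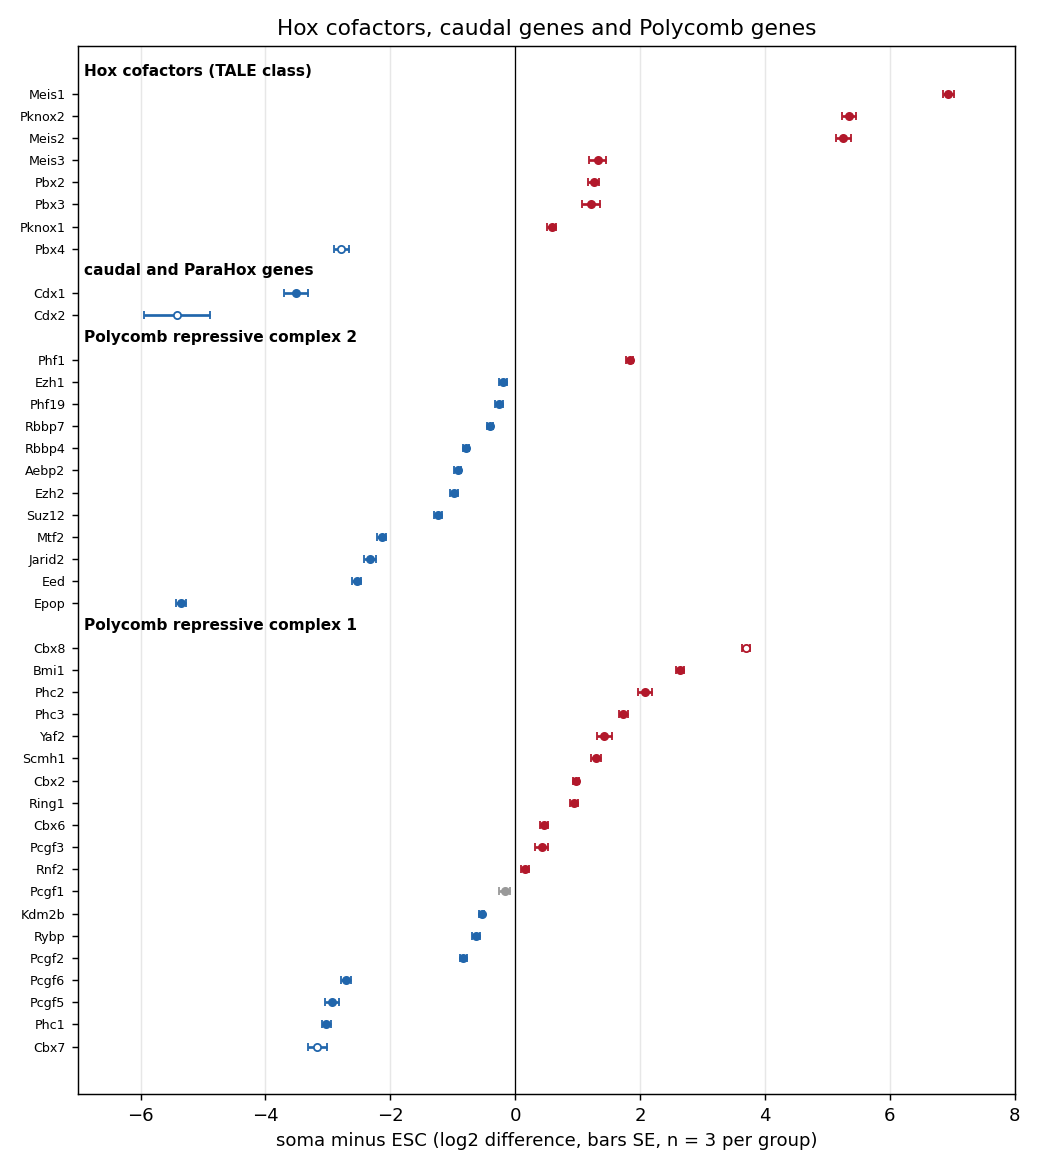
Difference between soma and ESC (log2, x axis, right of 0 where higher in soma) for the tested genes of 4 lists, with bars for the SE of the fit (n = 3 per group). Red genes were called higher in soma, blue genes lower and grey genes not called, and open points had no array well above background in 1 group. Meis1 at 6.94 and Epop at -5.35 are the extremes among the 3 lists of cofactors and Polycomb genes.

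Retinoic acid, made by aldehyde dehydrogenases and broken down by Cyp26 enzymes, is a known inducer of anterior Hox genes. Of 18 tested genes of this pathway, 11 were higher in soma and 6 lower, and the median was 1.22, where 38.3% of all genes were higher and 46.6% lower, and under other scalings and normexp 10 to 13 were higher and 4 to 6 lower. Cyp26b1 had 2550%, 2779% and 2319% on soma arrays and 8.91%, 7.40% and 8.75% on ESC arrays, 305.5-fold higher in soma (difference 8.25 ± 0.10, limma adjusted p = 1.54e-07). Its relative Cyp26a1 went the other way, with 0.925%, 0.622% and 0.805% on soma arrays and 39.2%, 115% and 72.7% on ESC arrays, at least 26.7-fold lower in soma (limma adjusted p = 1.63e-05). Aldh1a1 was at least 1705-fold higher in soma. Among the receptors, Rarb was at least 15.6-fold higher in soma by its brightest probe, while its other probe differed by 2.60 on the log2 scale, and Rarg was 6.19-fold lower.

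The soma arrays carried markers of several cell types, by lists drawn up for this comparison. All 12 Sertoli markers, all 6 tested fetal Leydig markers and all 11 interstitial markers were higher in soma, where their summed signals were 6642% to 7883%, 10473% to 10705% and 33971% to 38458%, against 113% to 136%, 319% to 365% and 1348% to 1542% on ESC arrays. All 6 tested erythroid markers were also higher, at 81408% to 86210% on soma and 17.6% to 21.0% on ESC arrays, as were all 6 tested leukocyte markers, at 684% to 731% on soma and 66.7% to 95.6% on ESC arrays. Of 9 mesonephros and duct markers, 6 were tested, 2 were higher in soma and 4 lower, at 269.6% to 349% on soma and 604% to 1305% on ESC arrays. Emx2 (at least 26.5-fold) and Gata3 (difference 0.55) were the 2 higher, and Pax8, Lhx1, Krt8 and Krt18 the 4 lower. Krt18 alone, at 163% to 232% on soma and 500% to 1104% on ESC arrays, made up most of these sums. Ret and Cdh16 carried the mark on no array. The part of each of these cell types in the Hox levels was not tested.

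Germ cell markers summed to 562% to 970% on soma and 1575% to 1672% on ESC arrays, with 2 of 9 tested higher in soma and 4 lower. Nanos2, a gene of male germ cells chosen after its values were seen, had 26.9%, 48.6% and 75.01% on soma arrays and 0.485% to 0.665% on ESC arrays, at least 16.2-fold higher in soma, and Dazl was 4.16-fold higher. Neural markers summed to 133% to 145% on soma and 462% to 530% on ESC arrays. Limb and body wall muscle markers summed to 114% to 129% on soma and 89.6% to 137% on ESC arrays. Of the 3 muscle markers tested, 1 was higher in soma and 2 were lower. Acta1, the 1 higher, had 74.9% to 101% on soma and 36.2% to 57.9% on ESC arrays. Actc1 and Tbx4 were the 2 lower. Myod1, Myog, Pax7 and Tbx5 carried the background mark on no array, and Pax3 on 1 ESC array alone. Endothelial markers gave 5 higher and 2 lower of 8, at 544% to 725% on soma and 513% to 549% on ESC arrays. Kdr, at 314% to 493% on soma and 459% to 505% on ESC arrays, made up most of these sums. It was not called, while its other probe differed by 4.09. Cdh5, Emcn and Tie1, marked on no ESC array, were at least 36.9-fold, 11.2-fold and 4.76-fold higher in soma. Cldn5 and Esam were higher too, and Pecam1 and Tek were the 2 lower. The somatic label thus fits its markers, with blood cell, germ cell and some endothelial genes beside them.

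Of 12 pluripotency markers, 11 were lower in soma, with sums of 980% to 1200% on soma and 39178% to 41710% on ESC arrays, while the probe of Nanog was 2.84-fold higher in soma. Primitive streak and early mesoderm markers were lower in soma for 6 of 7 tested, at 36.5% to 41.1% on soma and 487% to 1123% on ESC arrays. The part of such cells in the ESC signal of Hoxc13, Cdx1, Cdx2 and Evx1 was not tested. ESC 1 was the lowest of the ESC arrays for Hoxa2, Hoxa3, Hoxd8, Hoxc13, Cdx1, Cdx2, Evx1 and Cyp26a1, genes singled out after their values were seen.

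Spread between replicates was larger for Hox genes on ESC arrays, where many lay near background. The median SD of the 25 tested coding Hox genes was 0.115 on soma and 0.337 on ESC arrays on the log2 scale, against 0.0852 on soma and 0.0902 on ESC arrays over all tested genes. Among the 23 Hox genes higher in soma, the highest soma value lay on soma 1 for 7, on soma 2 for 8 and on soma 3 for 8. Some marker lists were less even: soma 3 had the highest soma value for 8 of 9 germ cell and 9 of 11 interstitial markers and the lowest for 10 of 12 Sertoli markers. Others were even, as each soma array had the highest value for 2 of 6 tested neural markers and for 1 of 3 tested limb and body wall muscle markers. With soma 3 left out, 22 coding Hox genes were higher in soma. The ESC arrays were scanned in a run of their own, and the effects of scan and of group cannot be told apart. On the slide that held soma 3 and all ESC arrays, the differences of the 25 tested genes moved by a median of 0.0737, the most for Hoxc13 (-2.19, against -2.66 with all arrays), and 22 were higher in soma. That fit has 1 soma array without a replicate, so its spread comes from the ESC arrays alone.

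The sizes of the larger differences were smaller under normexp. That setting changed the signal used, the background correction and, through an offset before the log, the floor together, so the part of each was not separated. The same fit then gave 23 coding Hox genes higher in soma, with differences from 0.56 for Hoxa2 to 5.97 for Hoxc6 and a median over the 25 tested of 1.52, against 3.56 with the scanner's own correction. Hoxd9 then differed by 5.41, Hoxd4 by 5.36, Hoxc4 by 4.82 and Hoxd8 by 4.68, so that Hoxc6, whose ESC arrays were all well above background, ranked above them. The direction of these 5 genes was the same in both.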

How the data were processed

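Total RNA was labelled with Cy3 and hybridised to Agilent 4 x 44K mouse arrays, per the labels' protocols. The scans were read with Feature Extraction 10.7.3.1 on a grid built for mm9, per the file headers. The deposited processed signal is an intensity from which background and spatial trend were removed on each array alone. In the deposited series matrix the values are log2 with the scale not stated, and 99.97% of them lay within 0.01 of the scanner values after scaling to the 75th percentile and centring each probe. The deposited other columns used are the scanner's marks for background, saturation and outliers.

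From these, spots of a probe were averaged on the log2 scale, 1377 control spots and 15 probe values with an outlier mark were left out, and no spot was saturated. The log2 signal minus the array's 75th percentile was tested two-sided as soma minus ESC by lmFit and eBayes of limma 3.58.1 (R 4.3.3), with p-values adjusted over all 19673 genes by Benjamini-Hochberg and called under 0.05. A probe was kept when well above background on all arrays of a group, and a gene was read from its brightest kept probe. Probes with several spots counted as marked when more than 0.5 of their spots were. Symbols came from matching transcript identifiers to a RefSeq gene table of GRCm38.p6, which named 66.1% of gene probes. Its coordinates were used for gene order and for the start regions shown. Hoxb3os and Hoxb5os were not analysed here, and some genes are not reported here.

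The members, gene lists and tests were chosen with earlier results of these data known. Each Hox gene described is named. From each other pathway list the rule takes the 2 largest differences in each direction past the threshold, plus a few genes fixed by name. Nanog, Nanos2, Dazl, Kdm5a and Kdm5b were named after their values were seen, as were the neighbours that came from gene order. The number of marked Hox genes was compared over arrays by exact permutation. Alternatives covered scaling (quantile, array median, spike-in), normexp with an offset of 50 on the spots' median signals, other filters, the mean of a gene's probes, single probes, the series matrix, another variance model, a test against a log2 difference of 1, leaving out each array, and slide, scan or replicate number as a block. The fit was checked on simulated data. The number of arrays limits the precision.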

Additional observations from a re-analysis of the deposited data

How the results depend on the processing

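The count of coding Hox genes higher in soma stayed between 22 and 24 under every alternative (24 where single probes were counted) except the filter for the mark on all 6 arrays, which left 4 coding genes and 3 higher. The count lower in soma, 1 in the reported limma fit, was 0 under that filter, where the remaining gene, Hoxa9, had a positive difference, so that none was lower before adjustment either. It was 3 when the mark on at least 1 array was enough and 5 with no filter. These filters change which genes are tested. Testing against a log2 difference of 1 gave 3741 genes higher and 3854 lower over all genes, against 7537 and 9175. With each array left out in turn, 22 to 23 coding Hox genes were higher and 1 lower each time, 7231 to 7382 of all genes were higher and 8824 to 9253 lower, and the gap in marked Hox genes per array was 14.7 to 18.7, against 16.7 with all arrays.

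The replicate numbers did not pair the arrays, since same-numbered soma and ESC arrays deviated together with r of -0.0473, 0.0672 and 0.0274. With the replicate number as a block, 22 coding Hox genes were higher and 1 lower, and 7446 of all genes were higher and 9033 lower. The median difference over all genes was -0.14, and moved to -0.02 under quantile normalization, -0.34 under scaling to the array median and 0.07 under spike-in scaling.

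Hoxa9 reversed to -0.10 under quantile normalization, -0.088 under the array median, -0.13 with the slide as a block or with the shared slide alone, and, with single arrays left out, ranged over -0.14 to 0.31, below 0 without soma 2 and without ESC 2. Smug1 reversed to -0.039 and Mtx2 to -0.045 under the array median. For these 3 genes the cause was not tested. Of 545 values of single Hox genes under the alternatives, 518 kept direction and side of the threshold and 21 lost the threshold, these being Hoxa2 and Hoxa11os. The dim ESC signal limits the size of most differences to a bound.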
